A study of Mus musculus with 6 samples.

Results

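The genes described here are 35 genes of DNA replication and deoxynucleotide synthesis, taken by symbol from the 17904 genes of the deposited expression table. All 35 reached 1 FPKM (fragments per kilobase of transcript, scaled for depth as well) in at least 1 library, and 11549 genes in all did so and are called measured below. By role they are 8 licensing genes (Mcm2 to Mcm7, Cdc6, Cdt1), 4 of helicase activation (Mcm10, Cdc45, Gins1, Gins2), 6 of the polymerases and primase (Pola1, Pola2, Prim1, Prim2, Pole, Pole2) and 6 of the sliding clamp, its loader and the lagging strand (Pcna, Rfc3, Rfc4, Rfc5, Fen1, Lig1). The remaining 11 are 4 genes of deoxynucleotide synthesis (Rrm1, Rrm2, Tk1, Tyms), 4 of chromatin assembly and the upkeep of DNA methylation (Chaf1a, Chaf1b, Uhrf1, Dnmt1) and 3 that control entry into S phase (E2f1, Ccne1, Ccne2).

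Expression was measured by RNA sequencing in 6 libraries of mouse bone marrow-derived macrophages, the adherent phagocytes that marrow cells become when grown with the growth factor M-CSF. The marrow came from C57BL/6 mice of 8 weeks and was grown for 5 days. Their genotype was labelled WT (wild type) or KO (knockout) of Setd2, which encodes the enzyme that trimethylates lysine 36 of histone H3. They were collected untreated (0 h) or after 12 or 24 h with 100 ng/ml lipopolysaccharide (LPS), the outer membrane molecule of bacteria through which macrophages sense infection. No library was left untreated for 12 or 24 h, so LPS and time in culture cannot be told apart. Differences from 0 h are called LPS responses below with that limit. All 6 groups share the strain, the age and the M-CSF culture, and each group holds 1 library. The labels do not describe the Setd2 allele, and whether libraries share an animal or a culture is not given in the sources used here. Differences between groups could therefore not be set against a spread between replicates.

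DNA replication is licensed in G1, when Cdc6 and Cdt1 help to load the ring of MCM2 to MCM7 onto origins. In S phase Cdc45 and the GINS complex turn that ring into the active helicase, primase and polymerase alpha lay down primers, and the clamp PCNA holds the copying polymerases on the template. Ribonucleotide reductase, thymidine kinase and thymidylate synthase provide the deoxynucleotides. Many of these genes are known targets of E2F transcription factors, which RB proteins restrain until cyclin-dependent kinases release them. Bone marrow macrophages divide in M-CSF, and activation by LPS is known to stop that growth.

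Promoter sequence is shown because E2F binding sites are the best known shared feature of these genes. RefSeq promoter windows of GRCm38.p6 (250 bases before to 50 after the annotated start) were matched for 29 of the 35 genes. Both strands were searched for 4 words of the E2F type, TTTCCCGC, TTTGGCGC, TTTCGCGC and TTTGCCGC. At least 1 word was found in 12 of the 29 windows (41.4%), compared with 704 of 27025 windows of all genes (2.6%) and 448 of 9111 windows of measured genes (4.92%). In 8 of the 12 a word lay upstream of the start, as it did in 583 of the 27025 windows of all genes and 376 of the 9111 of measured genes. The stretches below belong to the 4 of these 8 genes whose upstream stretch overlaps no annotated exon. Each is given 5′ to 3′ on the strand of the gene, with the words in capitals.
Uhrf1: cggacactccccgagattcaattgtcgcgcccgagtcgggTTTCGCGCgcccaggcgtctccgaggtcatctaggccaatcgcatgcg
Mcm5: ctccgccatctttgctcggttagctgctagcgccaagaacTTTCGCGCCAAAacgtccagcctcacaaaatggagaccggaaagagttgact
Mcm6: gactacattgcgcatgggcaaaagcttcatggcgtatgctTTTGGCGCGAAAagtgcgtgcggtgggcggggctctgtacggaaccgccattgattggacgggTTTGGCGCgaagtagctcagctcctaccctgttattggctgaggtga
Pola1: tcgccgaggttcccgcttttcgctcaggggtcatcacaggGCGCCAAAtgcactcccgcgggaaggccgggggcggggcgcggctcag

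The Uhrf1 stretch is chr17:56304088-56304175 on the plus strand (-225 to -138 from the start). That of Mcm5 is chr8:75109316-75109407 on the plus strand (-193 to -102), and its 2 words overlap on opposite strands. That of Mcm6 is chr1:128359706-128359855 on the minus strand (-150 to -1) and holds 3 words, of which a pair overlaps in the same way. The Pola1 stretch is chrX:93632246-93632333 on the minus strand (-178 to -91). All 4 lie outside annotated exons of GENCODE M21, and those of Uhrf1 and Pola1 fall within the wider span that RefSeq gives these genes. A match describes the letters of the window and is not evidence of a bound factor.

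Depth, estimated from the spacing of low FPKM values, was 21730000 to 22470000 reads per library. Setd2 held 7.83, 8.68 and 7.51 FPKM in WT at 0, 12 and 24 h, and 9.96, 9.16 and 5.11 FPKM in the libraries labelled KO. A gene-level value does not check a deletion of some exons, so the labels alone say which library is KO. Differences between KO and WT followed transcript length (Spearman rho across genes 0.60 without LPS, 0.13 after 12 h and -0.44 after 24 h of it). The 35 genes had a median length of 2962 bases against 2714 for measured genes. Macrophage markers (7 genes, among them Csf1r, Cd68 and Adgre1) were detected in all libraries, with summed levels of 2406 to 4492 FPKM. Markers of neutrophils summed to 20.3 to 54.9 FPKM and those of fibroblasts to 6.56 to 12.6. T cell, B cell, dendritic, mast cell and erythroid markers stayed at or below 3.52 FPKM in sum.

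LPS was followed by a deep loss of replication transcripts in both genotypes. Before LPS the 35 genes together held 2008 FPKM in WT and 1725 FPKM in KO. After 12 h with LPS the sums were 483.4 and 385.2 FPKM, and after 24 h 243.0 and 312.9 FPKM. Pcna alone held 101.88 FPKM of the 24 h sum in WT and 183.91 FPKM of that in KO. At 24 h 26 of the 35 genes were lower in KO than in WT and 9 higher. As a share of all FPKM, the sums were 0.376% at 0 h and 0.0436% at 24 h in WT, and 0.374% and 0.0538% in KO. The median gene kept 22.2% of its 0 h level at 12 h and 7.49% at 24 h in WT. In KO it kept 16.2% and 7.59%. Ribonucleotide reductase subunit Rrm2 had the smallest remainder at 24 h (1.01% in WT and 0.502% in KO) and E2f1 the largest (54.1% and 78.3%). The Rrm2 value in KO at 24 h corresponds to about 17 reads. Ccne2 (1.51% in WT and 0.848% in KO) and, in KO, Pole (0.601%) lay close to Rrm2.

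A gene was called at a 2-fold difference or more on the log2(FPKM + 1) scale, which understates the differences of weakly expressed genes. At 12 h in WT, 34 of the 35 genes were called lower and 0 higher, where 17.4% of measured genes were called lower. At 24 h in WT the count was again 34 lower, against 13.9% of measured genes. In KO it was 34 at 12 h (17.5% of measured genes) and 34 at 24 h (21.6%). E2f1 was the exception each time, so the same 34 genes were at least 2-fold lower in all 4 comparisons, as were 7.31% of measured genes. The median differences were -2.0 at 12 h and -3.21 at 24 h in WT, and -2.31 and -3.04 in KO. Over all measured genes the medians were -0.28, -0.25, -0.36 and -0.39 in the same order. Comparisons at 12 and 24 h in a genotype share their 0 h library.

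**Figure D1:**
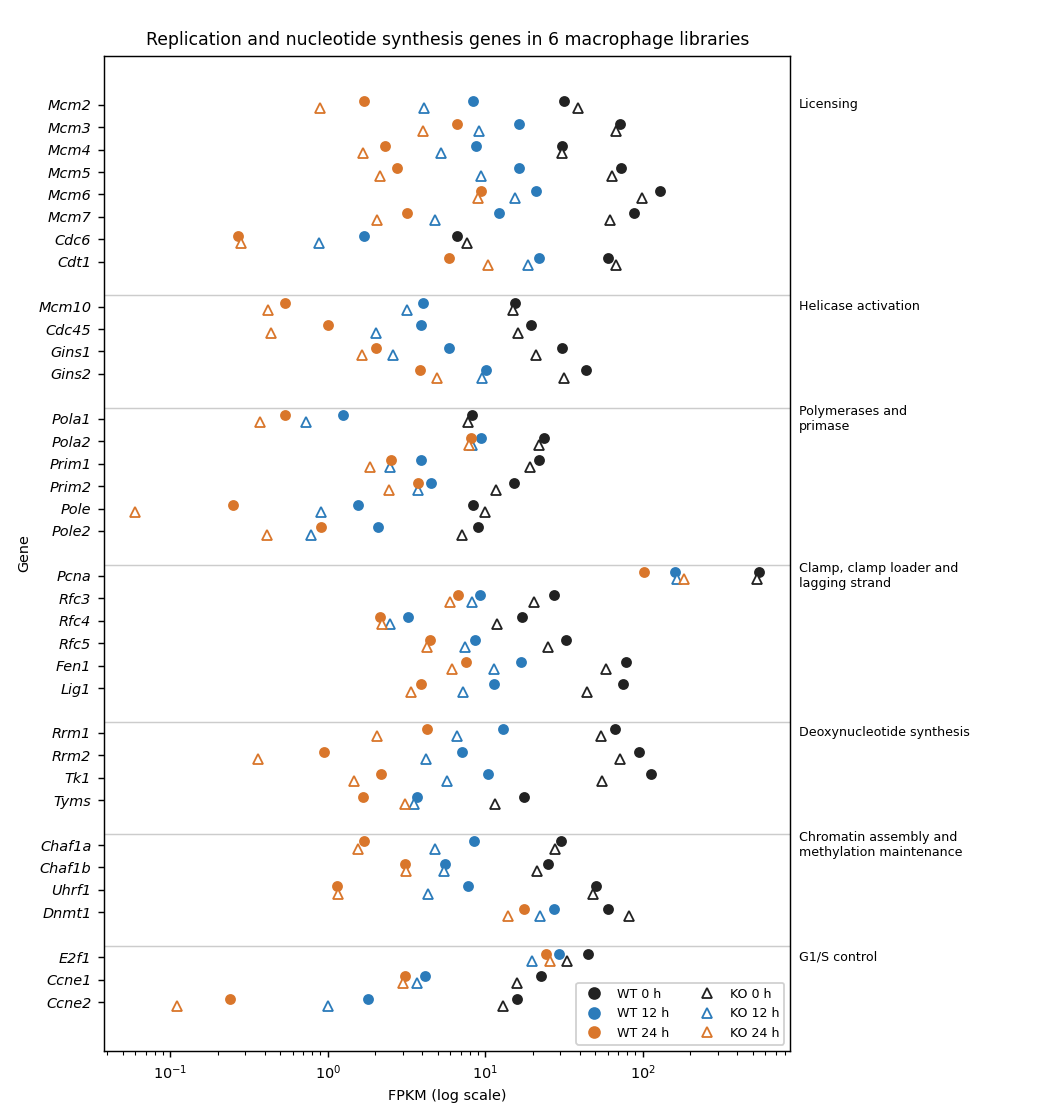
FPKM of the 35 genes (log axis) in the 6 libraries, 1 symbol per library, grouped by role. Filled circles are WT and open triangles KO. Black symbols at 0 h lie to the right of blue (12 h) and orange (24 h) symbols for every gene, and Rrm2 goes from 94.4 to 0.95 FPKM in WT while E2f1 goes from 45.0 to 24.3.

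The only test came from limma, in a model with additive terms for genotype and time. Its error starts from how far the 2 genotypes depart from a common shift, with 2 residual degrees of freedom. Empirical Bayes then moderates that error toward the spread over all genes, and it is not replicate error. With Benjamini-Hochberg adjustment over 11547 genes, all 35 genes fell at 12 h, where 30.5% of genes did so. At 24 h 34 genes fell, against 25.2% of genes. E2f1 missed the threshold there (log2 difference -0.60, SE 0.218, adjusted p = 0.0727), and passed narrowly at 12 h (-0.66, adjusted p = 0.0488). With libraries scaled by trimmed means of ratios (TMM), 34 genes passed at both times. Counting intervals on the estimated reads (95%, Clopper-Pearson, counting error only) excluded a ratio of 1 to 0 h for all 35 genes in each genotype at both times. These intervals were not computed for other genes.

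TMM scaling moved the median of all genes from between -0.25 and -0.39 to between 0.00 and 0.02. The 35 genes then had medians of -1.66 and -2.88 in WT and -1.90 and -2.58 in KO. Called lower were 32 genes at 12 h in both genotypes, and 34 (WT) and 33 (KO) at 24 h. The share of measured genes called lower and higher went from 17.4% and 9.64% to 10.4% and 13.2% for 12 h in WT, from 13.9% and 7.65% to 8.77% and 10.2% for 24 h in WT, from 17.5% and 8.63% to 9.19% and 12.5% for 12 h in KO, and from 21.6% and 7.55% to 11.4% and 13.4% for 24 h in KO. Only for E2f1 did the direction turn, in KO at 24 h. In bulk RNA, fewer cells that replicate their DNA and less of these transcripts per cell cannot be told apart. Markers of myeloid progenitors, the dividing marrow cells from which macrophages grow, moved with the result. Their 7 genes summed to 25.6, 5.44 and 2.85 FPKM in WT at 0, 12 and 24 h, and to 34.6, 5.83 and 2.14 FPKM in KO. Of the 5 that were measured, Cd34, Mpo and Ctsg were called lower at 24 h in both genotypes, Elane in WT and Prtn3 in KO. Cd34 made up most of the sum (15.2 FPKM in WT and 27.2 in KO at 0 h), Kit and Flt3 stayed below 1 FPKM throughout, and Elane was listed at 0 in KO at 24 h. Their part in the result was not tested.

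All 8 licensing genes fell at both times in the additive fit. The 6 subunits of the MCM2-7 ring kept 14% to 28.2% of their 0 h level at 12 h in WT and 7.78% to 17.2% in KO. At 24 h they kept 3.63% to 9.29% and 2.31% to 9.15%. Mcm6 was the most abundant subunit, with 128, 21 and 9.39 FPKM in WT and 98.6, 15.5 and 9.02 in KO at 0, 12 and 24 h. Mcm5 held 72.9, 16.4 and 2.76 FPKM in WT and 64.4, 9.44 and 2.15 in KO. Mcm7 (GRCm38 chromosome 5, 138164583 to 138172111) held 87.8, 12.3 and 3.19 FPKM in WT and 61.8, 4.81 and 2.07 in KO. The 6 subunits thus spanned 31 to 128 FPKM in WT before LPS and 1.70 to 9.39 FPKM at 24 h, although the ring holds 1 copy of each. In the additive fit Mcm7 fell by 4.38 at 24 h (SE 0.242, limma adjusted p = 6.8e-05) and Mcm3 fell by 3.51 (SE 0.227, adjusted p = 0.000107). Cdc6, the ATPase that recruits the ring, held 6.63, 1.70 and 0.27 FPKM in WT and 7.65, 0.88 and 0.28 in KO. Cdt1, its partner in loading, held 60.5, 21.9 and 5.91 FPKM in WT and 68.1, 18.8 and 10.4 in KO, so it kept 9.77% and 15.3% at 24 h.

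The factors that convert the loaded ring into a moving helicase followed the same course. Cdc45, a subunit of the active helicase, held 19.7, 3.94 and 1 FPKM in WT and 16.1, 2.02 and 0.44 in KO. Mcm10, which is needed for origin firing, held 15.4, 4.04 and 0.54 FPKM in WT and 15, 3.18 and 0.42 in KO. Both were lowest at 24 h and highest at 0 h in each genotype. Of the GINS subunits, Gins1 held 30.6, 5.89 and 2.03 FPKM in WT and 20.9, 2.62 and 1.66 in KO. Gins2 held 43.8, 10.2 and 3.86 in WT and 31.9, 9.59 and 4.93 in KO. The 4 genes kept 3.50% to 8.80% at 24 h in WT and 2.73% to 15.5% in KO, where Gins2 is the upper end.

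Polymerase and primase genes were uneven. The catalytic subunit of polymerase epsilon, which copies the leading strand, went with Pole from 8.32 through 1.56 to 0.25 FPKM in WT and from 9.99 through 0.91 to 0.06 in KO. The last value corresponds to about 10 reads. Pola2, the regulatory B subunit of polymerase alpha, held 23.7, 9.48 and 8.12 FPKM in WT and 22, 8.31 and 7.88 in KO. The catalytic subunit Pola1 held 8.24, 1.25 and 0.54 FPKM in WT and 7.82, 0.73 and 0.37 in KO. So at 24 h 34.2% of Pola2 but 6.55% of Pola1 was left in WT, and 35.8% and 4.73% in KO, although both proteins belong to 1 complex. The primase subunits Prim1, which makes the RNA primer, and Prim2 kept 11.6% and 24.7% in WT and 9.71% and 20.9% in KO. In the additive fit Pola2 fell by 1.41 at 24 h (SE 0.183, limma adjusted p = 0.00179) and Pola1 fell by 2.64 (SE 0.191, adjusted p = 0.000168).

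Pcna, the sliding clamp, was by far the most abundant of the 35 transcripts. It held 550.27, 161 and 102 FPKM in WT at 0, 12 and 24 h and 531, 165 and 184 FPKM in KO (GRCm38 chromosome 2, 132249286 to 132253180). In WT each time was lower than the one before, whereas in KO the 24 h value lay above that of 12 h. In the additive fit Pcna still fell by 1.97 at 24 h (SE 0.276, limma adjusted p = 0.00244). The clamp loader subunits Rfc3, Rfc4 and Rfc5 kept 24.8%, 12.5% and 13.6% at 24 h in WT and 29.3%, 18.4% and 17% in KO. Fen1, the nuclease that trims flaps from Okazaki fragments, held 78.3, 16.8 and 7.59 FPKM in WT and 58.2, 11.4 and 6.16 in KO. DNA ligase 1 (Lig1), which seals those fragments, held 75, 11.4 and 3.94 FPKM in WT and 44.4, 7.19 and 3.37 in KO. Lig1 started lower in KO and the genotypes came close to each other by 24 h.

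The 4 genes of deoxynucleotide synthesis had the smallest median remainder of the 7 roles at 24 h (4.17% in WT and 3.24% in KO). Rrm2 (GRCm38 chromosome 12, 24708254 to 24714146), the subunit that carries the radical of ribonucleotide reductase, held 94.4, 7.14 and 0.95 FPKM in WT and 71.7, 4.23 and 0.36 in KO. Its partner Rrm1 held 66.8, 12.95 and 4.28 FPKM in WT and 54.2, 6.59 and 2.06 in KO. Rrm2 was the more abundant of the pair before LPS and the less abundant at both later times, in both genotypes. Thymidine kinase Tk1 (chromosome 11, 117815519 to 117826087), which salvages thymidine, held 113, 10.5 and 2.19 FPKM in WT and 54.9, 5.76 and 1.47 in KO. Thymidylate synthase (Tyms) held 17.55, 3.69 and 1.68 FPKM in WT and 11.6, 3.56 and 3.09 in KO. Tyms was the gene of this group with the most left at 24 h (9.57% in WT and 26.6% in KO), against 1.94% and 2.68% for Tk1. In the additive fit Rrm2 fell by 5.68 at 24 h (SE 0.194, limma adjusted p = 2.57e-05) and Tyms fell by 2.21 (SE 0.296, adjusted p = 0.00201).

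Among the chromatin genes, Uhrf1 and Dnmt1 parted, although the protein of the former brings that of the latter to newly copied DNA. Uhrf1 held 50.8, 7.77 and 1.15 FPKM in WT and 48.6, 4.31 and 1.17 in KO. Dnmt1, the methyltransferase that copies methylation onto the new strand, held 60.2, 27.4 and 17.7 FPKM in WT and 81.9, 22.2 and 14 in KO. At 24 h 2.26% of Uhrf1 and 29.4% of Dnmt1 was left in WT, and 2.41% and 17.1% in KO. The large and middle subunits of chromatin assembly factor 1, Chaf1a and Chaf1b, kept 5.65% and 12.3% in WT and 5.56% and 14.6% in KO.

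Of the 3 genes of S phase entry, E2f1, an activating E2F factor, stood apart. It held 45.0, 29.5 and 24.3 FPKM in WT and 33.1, 19.7 and 25.9 in KO (chromosome 2, 154559400 to 154569892). Its 24 h level in KO lay above that of 12 h. The E-type cyclins, which activate Cdk2 at the start of S phase, did not match each other. Ccne1 held 22.7, 4.18 and 3.12 FPKM in WT and 15.9, 3.72 and 3.03 in KO, while Ccne2 held 15.9, 1.80 and 0.24 in WT and 13.0, 1.01 and 0.11 in KO. At 24 h 13.8% of Ccne1 but 1.51% of Ccne2 was left in WT. The last KO value of Ccne2 corresponds to about 7 reads.

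Between 12 and 24 h the decline went on in WT and was shallower in KO by the counts. In WT 21 genes were called lower at 24 h than at 12 h (3.79% of measured genes), with a median of -1.09 against 0.00 for all genes. In KO 10 were called lower (7.67%), with a median of -0.80 against -0.07. With a pseudocount of 5 these counts were 7 in WT and 1 in KO (1.4% and 2.59% of measured genes), and with 0.1 they were 24 and 16 (6.96% and 13.3%). All 35 WT values were lower at each step, which held for 23.9% of measured genes. In KO this was true of 33 genes (34% of measured genes), the exceptions being Pcna and E2f1. Mcm5 (-2.21), Rrm2 (-2.06) and Uhrf1 (-2.03) had the largest late differences in WT. The MCM2-7 genes were called lower 6 of 6 in WT and 3 of 6 in KO, and the 6 polymerase and primase genes 1 of 6 and 0 of 6. These counts miss losses at low FPKM, which the log2(FPKM + 1) scale understates. Pole in KO kept 6.59% of its 12 h level, the least of the 35 genes, but was not called (-0.85). It went from 0.91 to 0.06 FPKM there, the latter from about 10 reads. Whether the late decline differs between genotypes could not be tested with 1 library per group.

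Before LPS the library labelled KO held slightly less of most replication transcripts than WT. Levels in KO were 81.4% of those in WT for the median gene, from 48.5% (Tk1) to 136% (Dnmt1). The median log2 difference was -0.28, against 0.02 for all genes. Below 0 were 30 of the 35, where 46.7% of measured genes were. Only Tk1 was called (-1.03, from 113 to 54.9 FPKM, ratio 0.485 with a counting interval of 0.457 to 0.515), where 1.26% of measured genes were called lower. With the length trend removed Tk1 stood at -0.78 and was not called. Lig1 followed (-0.74). The 5 genes that lay above 0 were Dnmt1 (0.44), Mcm2 (0.29), Pole (0.24), Cdc6 (0.18) and Cdt1 (0.17). Counting intervals excluded equality for 30 genes, 25 lower and 5 higher, but they hold no error between cultures. They were computed for the 35 genes only, so these counts cannot be set against a share of measured genes.

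At 12 h with LPS the gap was wider. KO levels were 63.1% of WT for the median gene, from 37.5% (Pole2) to 102% (Pcna). The median difference was -0.49, against -0.06 for all genes, and 34 of 35 genes lay below 0, where 59.4% of measured genes did. With TMM scaling 32 did. Mcm7 was the 1 gene called (-1.20, from 12.3 to 4.81 FPKM, ratio 0.39 with a counting interval of 0.341 to 0.446), against 0.727% of measured genes called lower. At a 1.5-fold rule 14 were called lower, against 3.74% of measured genes. Macrophage markers summed to 4046 FPKM in WT and 3258 FPKM in KO at that time, with 5 of the 7 below 0 and a median difference of -0.44, and their part in the result was not tested. The MCM2-7 subunits ranged from 39.0% to 74.1% of WT, and the deoxynucleotide genes from 50.9% to 96.5%. Genes of the clamp, its loader and the lagging strand were closer to WT, at 63.1% to 102%. Counting intervals excluded equality for 27 genes, all lower in KO, again without a share of measured genes to set beside that count.

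By 24 h the median gene was closer between genotypes, and some genes lay higher in KO. KO levels were 81.2% of WT for the median gene, from 24.0% (Pole) to 184% (Tyms). The median difference was -0.17, against -0.12 for all genes. Below 0 were 26 genes, where 61.4% of measured genes were, and 21 with TMM scaling. With the length trend removed 26 lay below 0, with a median of -0.11 against -0.09 for all genes. None was called, where 4.15% of measured genes were called in either direction; with TMM scaling Pcna was called higher, and at a pseudocount of 0.1 there were 4 calls, all lower, against 5.86% of measured genes called lower. Pcna (ratio 1.81, counting interval 1.73 to 1.88), Tyms (1.84, 1.46 to 2.33), Cdt1 (1.76, 1.52 to 2.04) and Gins2 (1.28, 1.10 to 1.48) were the 4 genes whose interval lay above 1. Macrophage markers summed to 4492 FPKM in WT and 3643 FPKM in KO at that time, with a median difference of -0.81. Of these 7 markers, 4 lay below 0 and 3 above. The 2 called lower in KO were Itgam (-1.24) and Mertk (-1.01), where 1.93% of measured genes were called lower. The part of these markers in the result was not tested. For 14 genes the interval lay below 1, among them Rrm1 (0.481, 0.401 to 0.576), Mcm2 (0.529, 0.385 to 0.714) and Rrm2 (0.379, 0.199 to 0.661). No share of measured genes was computed for these interval counts, and the ratios hold no correction for transcript length.

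**Figure D2:**
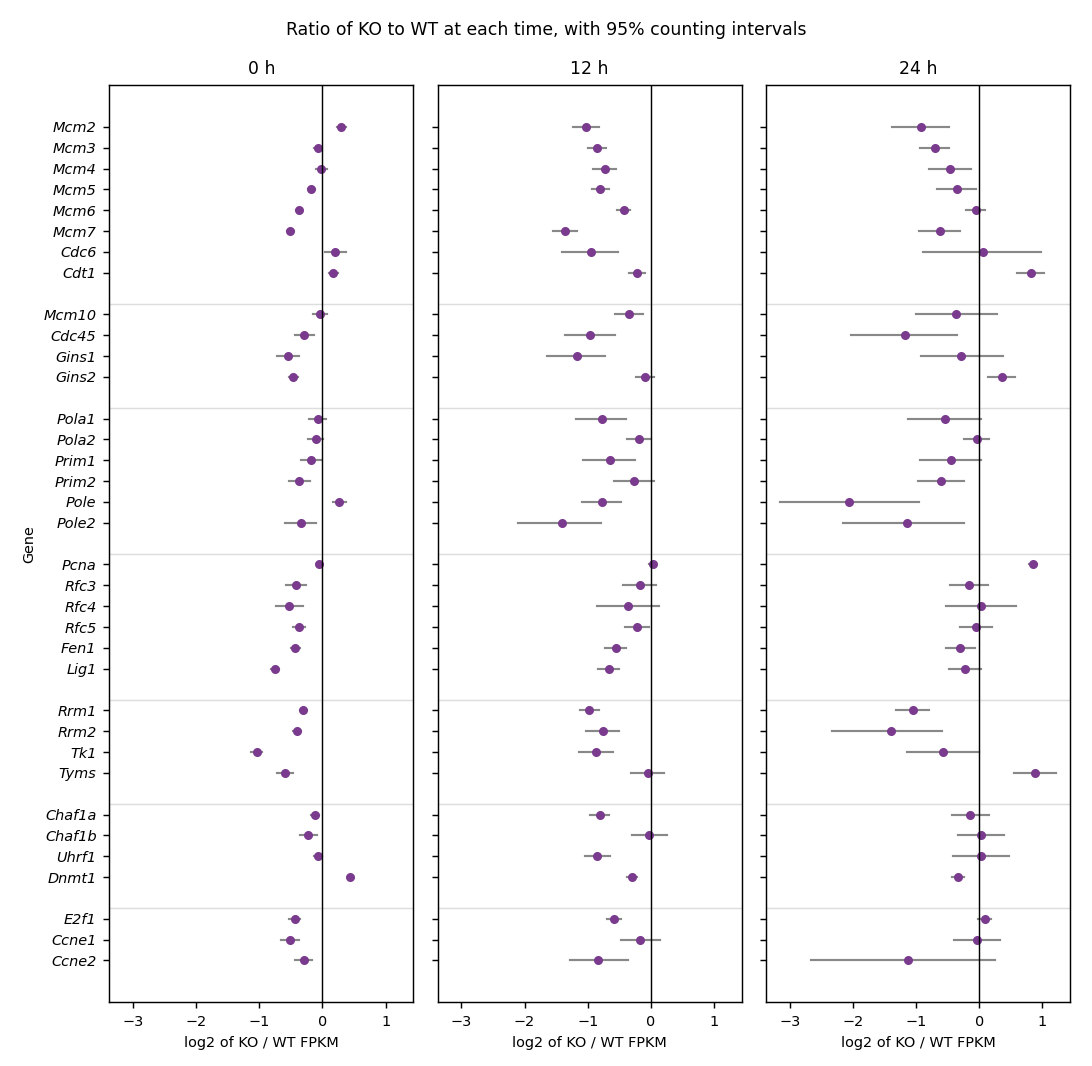
Ratio of KO to WT FPKM on a log2 axis for the 35 genes at 0, 12 and 24 h, with 95% counting intervals as bars, which cover counting error only. Points lie mostly left of 0 at 0 h and 12 h (30 and 34 of 35 genes), and at 24 h Pcna, Tyms and Cdt1 stand to the right, at ratios of 1.76 to 1.84.

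The genotype term of limma's additive fit draws its error from the spread of the KO to WT difference over the 3 times, moderated likewise. This term called 0 of the 35 genes after Benjamini-Hochberg adjustment, and 0.0173% of all genes. At an unadjusted p under 0.05 there were 10, and the share of all genes at that rule was not computed. Tk1 had the lowest of these (limma log2 difference -0.72, adjusted p = 0.327), and it was lower in KO at 3 of 3 times. Tyms had a difference of 0.00 in that fit (adjusted p = 1), as its values at 0, 12 and 24 h were -0.56, -0.04 and 0.61. An additive term cannot describe such a gene.

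The LPS responses themselves were close in both genotypes at 24 h. The difference of responses (KO minus WT) had a median of 0.07, against -0.12 for all genes, with 15 genes below 0 and 20 above. It ran from -0.80 (Mcm2) to 1.17 (Tyms). This order depends on the log2(FPKM + 1) scale. Pole stood at -0.48 although it kept 3.0% in WT and 0.601% in KO (about 10 reads), where Mcm2 kept 5.38% and 2.31%. Tyms was the 1 gene past a size of 1, where 4.04% of measured genes were higher by that much. Pcna (0.90), Gins2 (0.74) and Tk1 (0.66) followed Tyms, and Dnmt1 (-0.76) stood next to Mcm2. KO to WT differences followed transcript length (rho 0.60 at 0 h and -0.44 at 24 h). Pcna and Tk1 are short (1518 and 1440 bases), and Dnmt1 and Mcm2 are long (5378 and 3371). Gins2 and Tyms, though higher, are also longer (3900 and 3163 bases) than the median of the 35 genes. The part of length in these differences was not tested. At 12 h the median was -0.25, against -0.07 for all genes, with 24 below 0 and 11 above. Mcm2 was lower by 1.17 there, where 3.14% of measured genes were lower by 1 or more. Its level went from 31.6 to 8.37 FPKM in WT and from 39.0 to 4.11 in KO, so it started higher and ended lower in KO (GRCm38 chromosome 6, 88883474 to 88898780). With 1 library per group the interaction could not be tested.

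**Figure D3:**
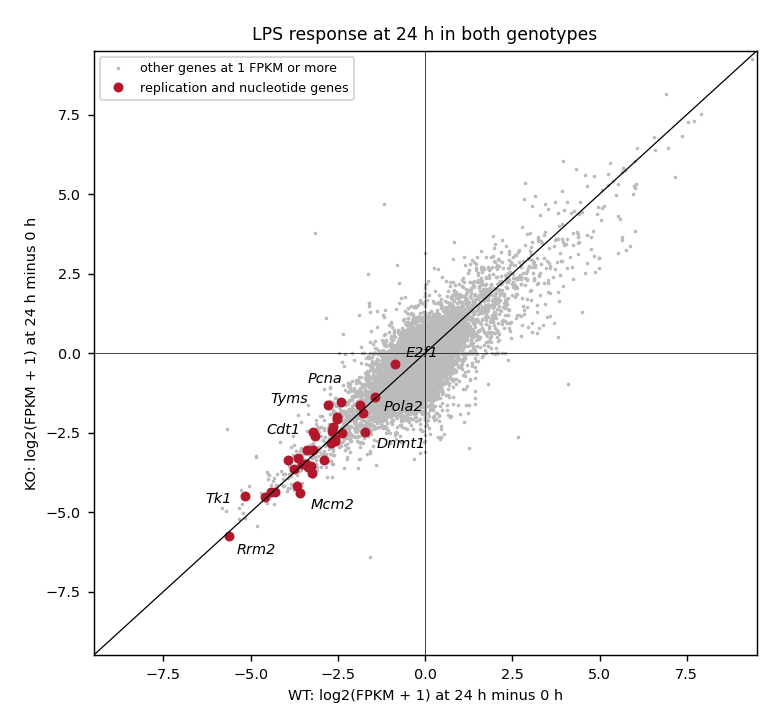
Difference of log2(FPKM + 1) between 24 h and 0 h in KO (vertical) against WT (horizontal), 1 point per gene, with the 35 genes in red, other genes at 1 FPKM or more in grey and the line of equality in black. The red points lie in the lower left quadrant along the line, from E2f1 (-0.86 and -0.34) to Rrm2 (-5.61 and -5.74), with Tyms, Pcna and Cdt1 above the line and Mcm2 and Dnmt1 below it.

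Other genes of replication shared the direction with smaller sizes. Of 36 further replication genes, 25 were called lower at 24 h in WT (median -1.75) and 23 in KO (median -1.77). Of measured genes 13.9% were called lower in WT and 21.6% in KO. Claspin (Clspn), which links the fork to the checkpoint, had the largest difference of the 36 in WT (-3.92, from 18.3 to 0.27 FPKM). Pold4, a small subunit of polymerase delta, was called higher in KO (1.08, from 26.3 to 56.5 FPKM) and held 51.0 and 50.8 FPKM in WT. Replication-coupled chromatin genes were called lower for 7 of 8 in WT (median -2.29) and 6 of 8 in KO (-2.40), led by the histone chaperone Asf1b (-3.93 and -4.25). All 20 mitosis genes were called lower in both genotypes, with medians of -4.04 and -4.26, beyond the -3.21 and -3.04 of the 35 genes. Birc5, an inhibitor of apoptosis that acts in cell division, had the largest difference of these in WT (-5.83).

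Nucleotide metabolism outside the 35 genes was mixed. Of 17 other pyrimidine and folate genes, 10 were called lower in each genotype at 24 h (medians -1.36 in WT and -1.60 in KO). Of measured genes 13.9% were called lower in WT and 21.6% in KO. Dut, which removes dUTP, was the lowest of the 17 (-3.55 and -3.00). Samhd1, which breaks deoxynucleotides down and restricts viruses, went the other way, with 58.8, 255 and 194 FPKM in WT and 87.2, 307 and 191 FPKM in KO. It was called higher at 24 h in both (1.70 and 1.12), while Rrm1 and Rrm2 stood at -3.68 to -5.74. Rrm2b, the other small subunit of ribonucleotide reductase, was not called (-0.10 and -0.71). Mthfd2, a mitochondrial folate enzyme, was called higher in WT (1.35) but not in KO (0.24). Of 10 purine synthesis genes 7 were called lower in both genotypes, with medians of -1.23 and -1.79.

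Regulators of S phase entry were mixed. Among 28 E2F, RB and G1 genes, 15 were called lower and 2 higher at 24 h in WT (median -1.10), and 17 lower and 1 higher in KO (-1.47). Of measured genes 13.9% were called lower and 7.65% higher in WT, and 21.6% and 7.55% in KO. Cyclin A2 (Ccna2), which drives S phase, had the largest difference of the 28 (-5.33 and -5.21). E2f2 (-2.87 and -3.23), E2f7 (-2.62 and -2.55) and E2f8 (-3.29 and -3.80) were called lower in both genotypes and E2f6 in KO (-0.97 in WT and -1.54 in KO), whereas E2f3, E2f4 and E2f5, picked after their values were seen, were not called (-0.75 to 0.09). Cdkn1a, which encodes the kinase inhibitor p21, was called higher in both genotypes, with 125, 187 and 260 FPKM in WT and 175, 247 and 411 FPKM in KO. Between genotypes, this list held higher calls in KO that the 35 genes lacked. At 0 h Ccnd2 (1.61), Myc (1.56) and Ccnd1 (1.34, from 53.5 to 137 FPKM) were called, when 2.96% of measured genes were called higher and Tk1 was called lower. At 24 h Ccnd1 (1.64), Myc (1.27) and Cdkn1c (1.02) were called higher, and Rbl2 (-1.18) and Cdkn1b (-1.07) lower. Of measured genes 2.22% were called higher and 1.93% lower at that time. At 12 h Ccnd2 (1.10) was called higher, where 1.32% of measured genes were.

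**Figure D4:**
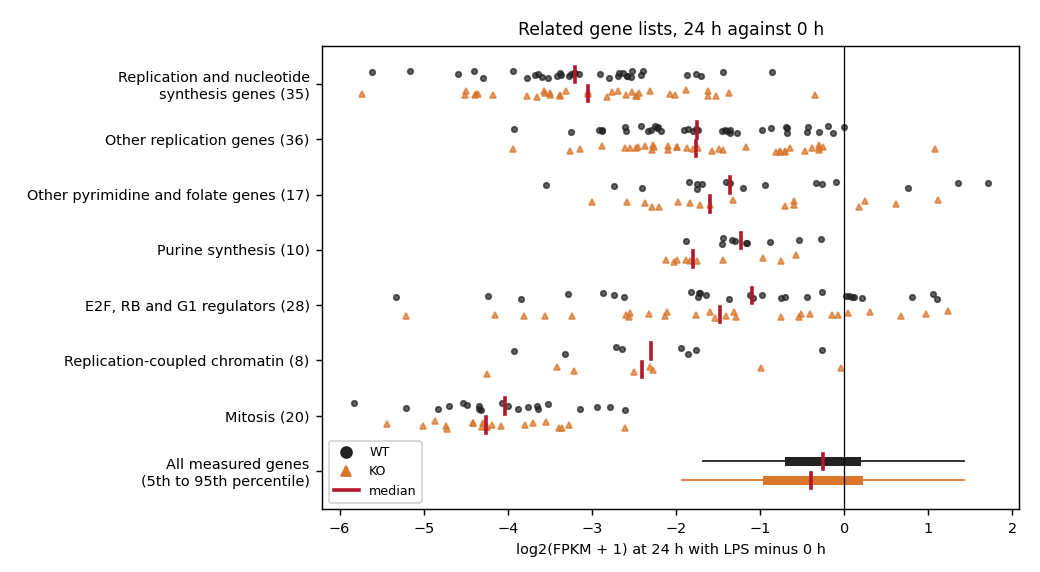
Difference of log2(FPKM + 1) between 24 h with LPS and 0 h for the measured genes of each list, 1 point per gene, WT in black and KO in orange, with red bars at the medians. The bottom rows give all measured genes, with thin lines from the 5th to the 95th percentile and thick lines over the middle quartiles. The mitosis genes and the 35 genes lie furthest left, and Samhd1 (1.70 in WT) and Cdkn1a (1.05) are among the few points right of 0.

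Between KO and WT the other lists at 12 h also lay mostly below 0. Below 0 were 35 of 36 other replication genes, 10 of 10 purine genes and 19 of 20 mitosis genes, against 59.4% of all measured genes, with medians of -0.26, -0.40 and -0.32. So were 14 of 17 other pyrimidine and folate genes and 7 of 8 chromatin genes (medians -0.35 and -0.33), and 19 of 28 E2F, RB and G1 genes (median -0.12). Ccnd2 was the 1 call among these lists at that time. At 0 h Birc5 (-1.03) was called lower. In the promoter windows, the 4 printed genes and the other genes with an upstream word had 24 h differences in WT from -1.71 (Dnmt1) to -4.59 (Uhrf1). Rrm2, Tk1 and E2f1, named because they lie at the ends of the range of the 35 genes, held none of the 4 words. Neither did further genes between them, such as Mcm2 (-3.59). Whether a word goes with the size of the difference was not tested.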

How the data were processed

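Expression was deposited by the authors as 1 table of FPKM per gene with a column for each of the 6 libraries, per the file headers. Per the submitters' processing notes Bowtie2, RSEM and the build GRCm38 were used; versions and settings are not given in the sources used here, nor is the strand setting. FPKM scaling ties each level to the total of its library. A change in a few abundant genes thus shifts all others, which TMM-style scaling addresses. Because the authors deposited FPKM and not counts, no count model was run.

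Of 17905 rows the 1 without a gene was left out, 25 symbols stored as dates were recovered through their gene IDs, and 2 cells of the KO 0 h column that are not numbers were read as missing. Differences were taken on log2(FPKM + 1), a gene being measured at 1 FPKM in any library and called at a size of 1. Of 9 comparisons, 3 set KO against WT and 6 set times against each other. Depth was estimated from steps of low FPKM with a read length of 50 assumed, and the score of the steps was 0.548 to 0.598, compared with 0.0545 to 0.104 when transcript lengths (GENCODE M21) were shuffled. Intervals from it (95%, Clopper-Pearson on the share of reads) cover counting error only and were computed for the 35 genes alone. The additive fit used limma 3.58.1 in R 4.3.3 with trend and robust empirical Bayes. It took all measured genes without a missing value in any library, and was tested on simulated data. Other steps used Python 3.11.15 with pandas 2.3.3, SciPy 1.17.1 and statsmodels 0.14.6. Where annotated spans overlap another protein-coding gene (11 of the 35 genes, such as Mcm7, Tk1, Lig1 and E2f1), how reads were assigned is uncertain.

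Samples were grouped by the labelled genotype and time. Named were all 35 genes and, of the other lists (further replication, pyrimidine and folate, purine, E2F and G1, chromatin, mitosis, cell type markers), some of the called genes and of up to 4 with the largest difference. E2f3, E2f4, E2f5, Rrm2b and the markers Csf1r, Cd68, Kit and Flt3 were named outside this rule, after their values were seen. Promoter stretches were allowed for up to 6 genes with a word upstream, ranked by the WT difference at 24 h; those of Mcm7, Cdc6, Rfc3 and Dnmt1 overlap annotated exons and were left out. The genes and lists were chosen with earlier results of these data known. Alternatives were pseudocounts of 0.1 and 5, no minimum or a minimum of 5 FPKM, a 1.5-fold rule, TMM-style scaling computed on FPKM, and removal of the trend over transcript length (lowess, span 0.3).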

Additional observations from a re-analysis of the deposited data

Results flagged for a closer look

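For Mcm2, the KO to WT difference was 0.29 at 0 h and -0.87 at 12 h on the log2 scale, so it had opposite signs at these times and differed by -1.17 between them. For Tyms, it was -0.56 at 0 h and 0.61 at 24 h, a difference of 1.17 with opposite signs. Each value rests on 1 library per genotype and time, and the difference between times was not tested. By this measure 3.14% of measured genes were lower by 1 or more at 12 h, and 4.04% were higher at 24 h. Of the 35 genes it was 1 each time.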

How the results depend on the processing

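The LPS comparisons at 12 and 24 h kept 31 to 35 of the 35 genes called lower and 0 called higher under every alternative run, and no alternative reversed a called value. For KO against WT at 0 h, the 1 call became 0 with a pseudocount of 5, 0 with the length trend removed and 2 at a 1.5-fold rule. Those 2 were lower, where 7.79% of measured genes were called lower at that rule. At 12 h the 1 call became 4 with a pseudocount of 0.1, 0 with 5 and 14 at 1.5-fold. All were lower, where 1.86% of measured genes were with 0.1 and 3.74% at 1.5-fold. At 24 h the 0 calls became 4 with a pseudocount of 0.1, 1 with TMM-style scaling and 5 at 1.5-fold. With 0.1 all 4 were lower (5.86% of measured genes), and with TMM-style scaling the 1 was higher (2.89%). At 1.5-fold 2 were lower and 3 higher, where 10.8% and 6.06% of measured genes were. For 24 h against 12 h, the 21 calls in WT became 7 with a pseudocount of 5, and the 10 in KO became 16 with a pseudocount of 0.1, 1 with 5 and 22 at 1.5-fold. The shares of measured genes called lower were 1.4% in WT, and 13.3%, 2.59% and 19.8% in KO in the same order. A pseudocount of 5 shrinks differences of weakly expressed genes by its construction; otherwise the cause was not tested. The counts of limma's additive fit stayed at 34 or 35 for the LPS terms and at 0 for the genotype term (9 to 13 at an unadjusted p under 0.05). For the unadjusted rule no share of all genes was computed. No paired analysis was possible because each group holds 1 library, so the groups share fewer than 2 replicate numbers, and no library could be left out. Depth limits the lowest values, such as Ccne2 and Pole in KO at 24 h (about 7 and 10 reads).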

Other observations

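Geminin (Gmnn), which binds Cdt1 and keeps origins from being licensed again, held 90.5, 13.3 and 11.4 FPKM in WT at 0, 12 and 24 h, and 57.5, 6.84 and 10.3 FPKM in KO.

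Cell cycle inhibitors did not move together. At 24 h Cdkn2c, an inhibitor of the D-cyclin kinases, was called lower in WT and KO (-4.24 and -4.16), as was Cdkn1c (-2.73 and -2.60), while Cdkn1a was called higher in both. The D cyclins differed in time course. Ccnd2 peaked at 12 h, with 1.31, 15.1 and 3.97 FPKM in WT and 6.03, 33.6 and 7.67 in KO. Ccnd1 held 53.5, 11.2 and 2.78 FPKM in WT and 137, 11.3 and 10.8 in KO. The genes named here were picked after their values were seen.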
